A study of Drosophila melanogaster with 6 samples.

Results

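A group of 31 genes had lower signal in heads of female Drosophila melanogaster kept on a high fat diet than on a normal diet with a gap between the diets. They were chosen by their measured values, out of 11982 genes measured by a probe set with 1 gene symbol. A probe set was taken where its linear signal was at least 64 on all 6 arrays and its smallest normal diet value was at least 25% above its largest high fat value. Large gene families recognised by the start of their symbol (Cyp, Obp, Gst, Ugt, Or, Gr, Ir, Rp, mRp, Pros and Vha) were left out. Of the 7614 well-measured probe sets outside those families, 31 met the limits, 0.407%, each for a different gene. The same limits turned round, with the high fat diet higher, were met by 39 probe sets of 38 genes, 0.512%. The diet difference of the 31 genes was therefore fixed by the choice and is given as a description. No count of them supports an effect of the diet.

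The flies were w1118 females, a white-eyed laboratory strain, collected as virgins at 0 to 3 days and then mated for 48 hours with isogenic males. They spent 7 days on a medium of yeast, sucrose, cornmeal, agar and the preservatives tegosept and propionic acid, either plain or with 20% (w/v) coconut oil, at 23 degrees C in most cases. Total RNA from 25 to 50 heads, taken off frozen flies by vibration, was hybridised to 1 Affymetrix Drosophila 2.0 array per sample. The series describes the 3 samples of each diet as biological replicates.

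As background, several of the genes belong to DNA replication, nuclear transport and messenger RNA processing. Before a cell divides, licensing factors load the MCM helicase onto DNA, the sliding clamp PCNA holds the polymerases on the template, and checkpoint kinases stop the cycle when DNA is damaged. Egg chambers in the ovary are rich in such RNAs, since nurse cells replicate their DNA many times over and load the egg with what the early embryo needs for its fast divisions, while most cells of an adult head no longer divide. The nuclear pore and its transport factors, and the proteins that cut and export messenger RNA, are used by every cell and are abundant in the germ line.

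The arrays differed in germ line RNA. Of 73 measured genes in a list of germ line RNA markers, 63, 41 and 64 reached a signal of 64 on normal diet replicates 1, 2 and 3, against 30, 32 and 31 on the high fat arrays. Their summed signal was 52707, 24452 and 61938 on the normal diet and 22848, 24235 and 22326 on the high fat diet. By that sum, which includes bright genes also used outside the germ line, normal diet replicate 2 was close to the high fat arrays. The mean log2 signal of 18 markers described below was 9.86, 7.43 and 10.23 on the normal diet and 5.89, 5.67 and 5.86 on the high fat diet. By these markers replicate 2 lay between the other normal diet arrays and the high fat arrays. They were chosen for at least 64 on all normal diet arrays and a normal diet mean at least 2 times the high fat mean. That replicate 2 lay above the high fat arrays was therefore partly fixed by the choice. The maternal determinants osk, bcd and nanos were low on the high fat arrays, with nanos at 7.29, 2.62 and 15.7 there and at 1588, 73.1 and 2157 on the normal diet. The labels say whole head, and all 31 neuron and all 21 photoreceptor markers measured reached 64 on every array. Eggshell and follicle cell genes reached it in 3, 7 and 7 of 20 on the normal diet and in 3 on each high fat array, with summed signals of 2070, 2641 and 2188 against 1716, 1748 and 1943. Of 34 measured male germ line and accessory gland genes 4, 3 and 4 did so on the normal diet and 2 on each high fat array, with summed signals of 3012, 1153 and 3787 against 1066, 934 and 1169. That list names Pen and twe, which are also on the nuclear transport and the replication lists used below. Its signal therefore need not come from male tissue. The part of these other tissues in the results below was not tested. In bulk RNA such as this, fewer cells of a type and less RNA per cell cannot be told apart. High fat diet replicate 2 had a 3'/5' ratio of 20.4 for the actin control Act5C, which rises as RNA degrades, and the other arrays had 10.5 to 13.2.

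Signals below are linear and given in the order of replicates 1, 2 and 3 of each diet. A log2 change subtracts the normal diet mean from the high fat mean (3 arrays each), and SE is its standard error in limma, so negative values mean less signal with coconut oil. The changes of the 31 genes ran from -2.69 to -0.52 with a median of -0.88, against a median of -0.03 over all 18769 probe sets tested. As ratios of the normal to the high fat diet, the range was 1.44 to 6.46, and 13 genes exceeded 2. Within the high fat diet the 3 arrays spanned a median of 0.23 on the log2 scale, and at most 0.80, for Hsp27. limma called 0 probe sets lower at an adjusted p of 0.05 over the whole table, 0%, and 0 of the 31. At an unadjusted p under 0.05 it had 1475 probe sets, 922 of them lower, and the 31 genes were all among them, having been chosen on this contrast.

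**Figure D1:**
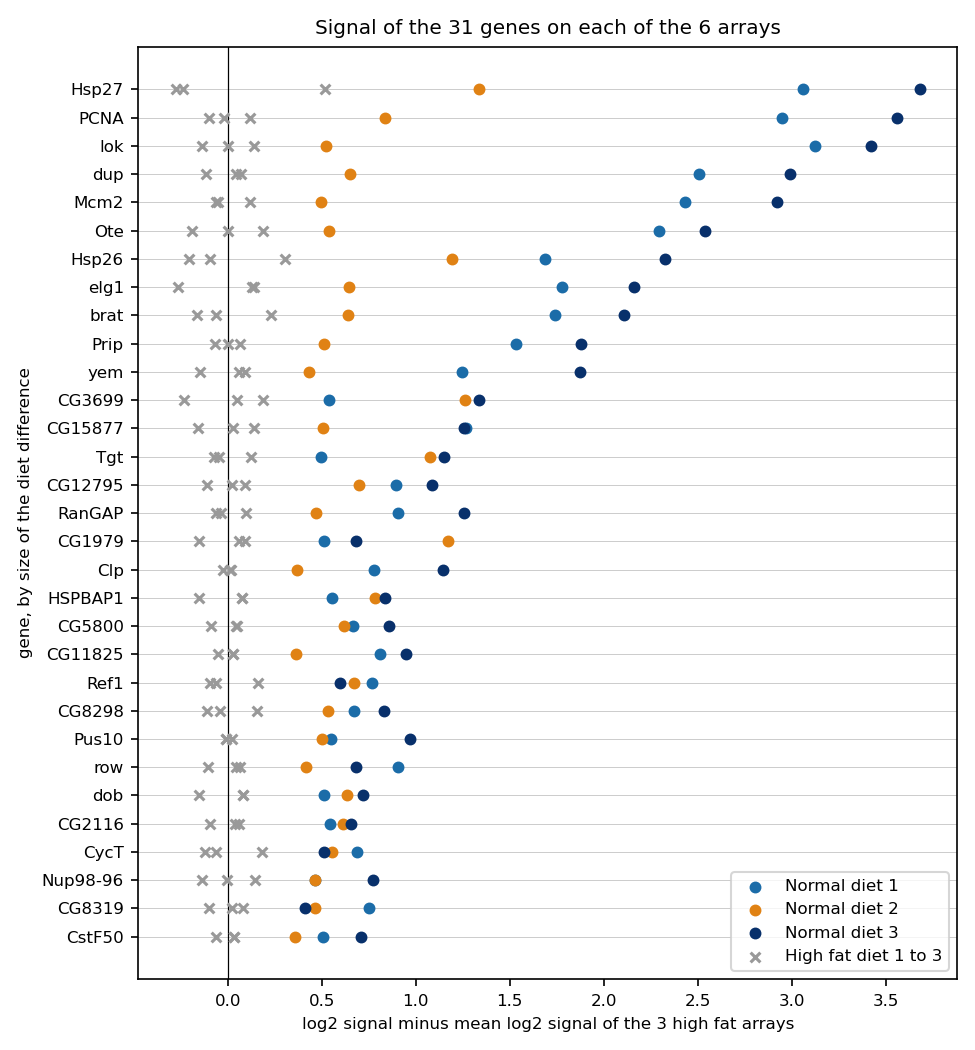
Signal of each of the 31 genes on each array, as log2 signal minus the mean log2 signal of the 3 high fat arrays (horizontal axis), with genes ordered by the size of the diet difference from -2.69 (Hsp27) to -0.52 (CstF50). Circles are the normal diet arrays and crosses the high fat arrays. In the upper genes normal diet replicate 2 lies far below replicates 1 and 3, and in many of the lower genes the 3 normal diet arrays lie together.

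Genes of DNA replication made up much of the upper end of the group. PCNA, the sliding clamp of the replication fork, measured 997, 231 and 1524 without coconut oil against 121, 140.2 and 127.5 with it (log2 change -2.45, SE 0.73). dup, the licensing factor known as Cdt1 in other animals, measured 495, 136 and 691 against 89.8, 91.4 and 80.3 (-2.05, SE 0.63). Mcm2, a subunit of the replicative helicase, measured 505, 132 and 710.0 against 89.6, 90.1 and 102 (-1.95, SE 0.66). In all 3 genes replicates 1 and 3 of the normal diet were several times as bright as replicate 2. Replicate 2 was 1.65 (PCNA), 1.49 (dup) and 1.30 (Mcm2) times the largest high fat value.

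Related genes had the same order of arrays. lok, the checkpoint kinase Chk2, gave 906, 149 and 1113 on the normal and 104, 114 and 94.4 on the high fat diet (-2.36, SE 0.81). elg1, whose yeast namesake takes PCNA off DNA behind the fork, gave 345, 157 and 450.1 and 110.3, 111 and 83.7 (-1.53, SE 0.43). The normal diet replicate 2 value of lok was the lowest of its diet by far and was 1.31 times the largest high fat value. In PCNA, dup, Mcm2, lok and elg1 alike, the high fat arrays spanned a far narrower range than the normal diet arrays.

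Of the 84 measured genes in a list of replication and mitosis, 40 were well measured, and 4 of these (PCNA, lok, dup and Mcm2) were among the 31 genes. Over the 40 genes, 39 were lower with coconut oil and the median log2 change was -0.61, against 54.9% lower and a median of -0.03 over 7320 well-measured genes. Set against the high fat mean, the list's median was 0.76 and 1.00 higher on normal diet replicates 1 and 3 and 0.09 higher on replicate 2. The list as a whole was thus highest on the 2 normal diet arrays with the most germ line marker signal, and the part of germ line RNA in it was not tested. It shares 1 gene with the germ line marker list.

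The small heat shock proteins Hsp27 and Hsp26, chaperones that hold unfolded proteins and are also made in nurse cells, were both in the group. Hsp27 had the largest difference of the 31 genes, at 1334, 403 and 2052 against 229, 132 and 136 (a ratio of 6.46, log2 change -2.69, SE 0.66). Hsp26 measured 1614, 1145 and 2516 against 619, 433 and 469 (-1.74, SE 0.33). Their gaps between the diets, 1.76 and 1.85 times, were the widest of the group, and both were brighter on high fat diet replicate 1 than on the other 2 high fat arrays. Hsp26 stayed high on normal diet replicate 2, where Hsp27 was much lower. The pair lie 3 places apart in the order of protein-coding genes of the RefSeq gene table, and no 2 of the 31 genes are next to each other there. The heat shock and chaperone list had 2 of its 40 well-measured genes in the group and a median change of -0.20. By the same limits 1 of its genes, l(2)efl, was higher on the high fat diet. HSPBAP1, whose human namesake binds a small heat shock protein, measured 146, 171 and 177 against 105, 89.5 and 105 (-0.72, SE 0.14), with replicates 2 and 3 of the normal diet close together and replicate 1 lowest.

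The nuclear envelope and nuclear transport were represented by 4 of the 54 well-measured genes in their list. Ote, a nuclear lamina protein needed by germ line stem cells, measured 365, 108 and 432 against 74.5, 65.2 and 84.8 (-1.79, SE 0.57). RanGAP, which switches off the GTPase Ran at the outer face of the pore, measured 464, 343 and 593 against 242, 237 and 265 (-0.88, SE 0.23). In both, normal diet replicate 2 was the lowest of its diet, by a wider margin in Ote. The gene that encodes the pore proteins Nup98 and Nup96 as 1 precursor measured 238, 238 and 295 against 190.3, 172 and 157 (-0.57, SE 0.15). Ref1, an adaptor that hands messenger RNA to the export receptor, measured 567, 530.2 and 504 against 312, 319.8 and 373 (-0.68, SE 0.13). These last genes had small differences, and in Ref1 the 3 normal diet arrays differed by less than their distance from the high fat arrays. The brightest of the other probe sets of Ref1 measured 3027, 2752 and 3197 against 2567, 2426 and 2435 (-0.27, SE 0.12), and another had a change of 0.04 (SE 0.22), so that its lower signal was seen by 1 probe set with a clear gap. The list as a whole had 46 of 54 genes lower and a median change of -0.32, with 0.41, 0.09 and 0.47 above the high fat mean on normal diet replicates 1, 2 and 3.

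Messenger RNA processing and transcription held 5 named genes. Clp, the fly counterpart of a subunit of the complex that recognises the polyadenylation signal, measured 249, 188 and 322 against 147, 143 and 147 (-0.76, SE 0.22). CstF50, a subunit of the cleavage stimulation factor, measured 237, 214 and 273 against 159.8, 171 and 171 (-0.52, SE 0.14), the smallest difference of the group. Both belong to the splicing and RNA processing list, of whose 51 well-measured genes 43 were lower, with a median change of -0.22. CycT, the cyclin of the kinase that releases paused RNA polymerase, measured 677, 616 and 599 against 477, 387 and 402 (-0.58, SE 0.14), with normal diet replicate 3 the lowest of its diet. row, a zinc finger protein found with the heterochromatin protein HP1c, measured 229.9, 164 and 197 against 114, 126 and 128.3 (-0.67, SE 0.17). Its other probe sets had changes of -0.40 (SE 0.18) and -0.0013 (SE 0.12), the last from the brightest of the probe sets. yem, a maternal protein that helps place histone H3.3, measured 229, 131 and 354 against 87.3, 103 and 101 (-1.18, SE 0.38). A further probe set of yem followed the same array order, at 268, 149 and 384 against 147, 111 and 141, without the gap that the limits ask for.

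A pair of genes encode RNA modifying enzymes. Tgt, the enzyme that puts queuine into transfer RNA, measured 113, 169 and 178 against 77.6, 76.1 and 87.1 (-0.91, SE 0.21). Pus10, of the pseudouridine synthase family, measured 215, 208 and 288 against 146, 146 and 149.5 (-0.67, SE 0.16). The arrays ranked differently in each: in Tgt normal diet replicate 1 was the lowest of its diet, and in Pus10 replicates 1 and 2 were alike and replicate 3 highest.

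Others had roles outside these processes. brat, a translational repressor that acts with Pumilio and Nanos in the early embryo and restrains neural stem cells, measured 446, 208 and 575 against 127.9, 119 and 156 (-1.50, SE 0.41). Prip, a water channel of the aquaporin family, measured 832, 409.6 and 1057 against 288, 301 and 274 (-1.31, SE 0.37). Both had the array order of the replication genes. The dimmer probe set of Prip ranked the normal diet arrays likewise, at 144, 4.17 and 189 against 14.6, 9.2 and 10.7 (-2.10, SE 1.56). Unlike in the replication genes, its replicate 2 lay below all high fat arrays. Its signal on replicate 2 and on the high fat arrays was far under 64. dob, a relative of the fat storage lipase brummer, measured 650.0, 706 and 749 against 481, 409 and 480.5 (-0.62, SE 0.13), and is on neither of the lipid lists used here. Its normal diet arrays lay close together, all above the high fat arrays. None of the 39 well-measured genes of lipid synthesis and elongation or the 52 of lipid breakdown and storage met the limits in the lower direction. In the higher direction 2 of each list met them. Over all well-measured probe sets outside the families left out, the shares were 0.407% lower and 0.512% higher. A count of 0 lower in lists of this size therefore says little about lipid genes.

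The remaining 9 genes carry only CG symbols, and no role is given to them here. CG3699 had the largest difference among them, at 1171, 1931 and 2036 against 831, 684 and 918 (-1.05, SE 0.27), and CG15877 followed at 188, 111 and 187 against 85.9, 79.6 and 69.9 (-1.01, SE 0.25). CG12795, at 594, 519 and 679 against 341, 297 and 325 (-0.89, SE 0.15), had a gap of 1.52 times. They differ in array order: normal diet replicate 1 was the lowest of its diet for CG3699, replicate 2 for CG15877 and CG12795. CG1979 measured 137, 217 and 154 against 86.5, 100.2 and 102 (-0.79, SE 0.21) and was the only gene of the 31 with normal diet replicate 2 highest of its diet. CG5800 measured 189, 183 and 215 against 123, 123 and 112 (-0.71, SE 0.12). CG11825 measured 350.0, 256 and 384 against 204, 203 and 192 (-0.71, SE 0.18). The normal diet arrays of CG5800 lay nearer together than those of CG11825 and CG1979. CG8298 gave 227, 206 and 253 against 132, 138 and 159 (-0.68, SE 0.14), CG2116 gave 371, 388 and 401 against 238, 265 and 261 (-0.60, SE 0.11) and CG8319 gave 215, 176 and 170.1 against 129.8, 119 and 135 (-0.54, SE 0.14). Their spread within the normal diet was small, and CG8319 was highest on replicate 1.

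To see which genes followed germ line RNA, each gene's excess in linear signal over the high fat mean on normal diet replicate 2 was taken as a share of its mean excess on replicates 1 and 3. A gene whose extra signal came and went with germ line RNA would have a low share, and a gene raised alike on the 3 normal diet arrays a share near 1. For 18 germ line markers with signal of at least 64 on the normal diet and a mean at least 2 times that of the high fat diet, the share ran from -0.047 to 0.231 with a median of 0.0763. osk, which assembles the germ plasm, had a share of 0.213, at 1664, 416 and 2124 against 13.6, 16.2 and 19.5. dhd, a thioredoxin of the egg, had one of 0.105, at 7101, 916 and 9559 against 47.8, 42.0 and 51.6. In all 18 replicate 2 was the lowest and replicate 3 was above replicate 1.

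Normal diet replicate 2 was the lowest of its diet in 22 of the 31 genes, 71.0%, against 38.1% of 7320 well-measured genes. The 31 genes were chosen on these same arrays, so this is a description. Of the 31, 16 had replicate 2 lowest and a share under 0.5. Their median log2 change was -1.51, against -0.68 for the other 15. This contrast was partly fixed by the limits, which kept genes with small differences from a low share, as described below. Of the 16, 10 had a share no higher than the highest of the markers. They were lok (0.0499), Mcm2 (0.074), PCNA (0.0895), dup (0.0971), Ote (0.103), Hsp27 (0.156), yem (0.172), Prip (0.185), elg1 (0.188) and brat (0.196). These genes hold 10 of the 11 largest differences of the group, the other being Hsp26. The limits fixed this in advance. For every gene outside those 11 the lowest share that the limits allow was 0.266 or more, above the highest of the markers. A share as low as that of the markers was thus open only to the largest differences. The remaining 6 had intermediate shares, with CG15877 at 0.301, Clp at 0.302, CG11825 at 0.339, RanGAP at 0.34, Hsp26 at 0.41 and row at 0.45. Normal diet replicate 3 was above replicate 1 in 14 of the 16 and in 12 of the other 15, so that this did not set the 16 apart; it was so in all 18 markers and in 48.9% of well-measured genes.

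**Figure D2:**
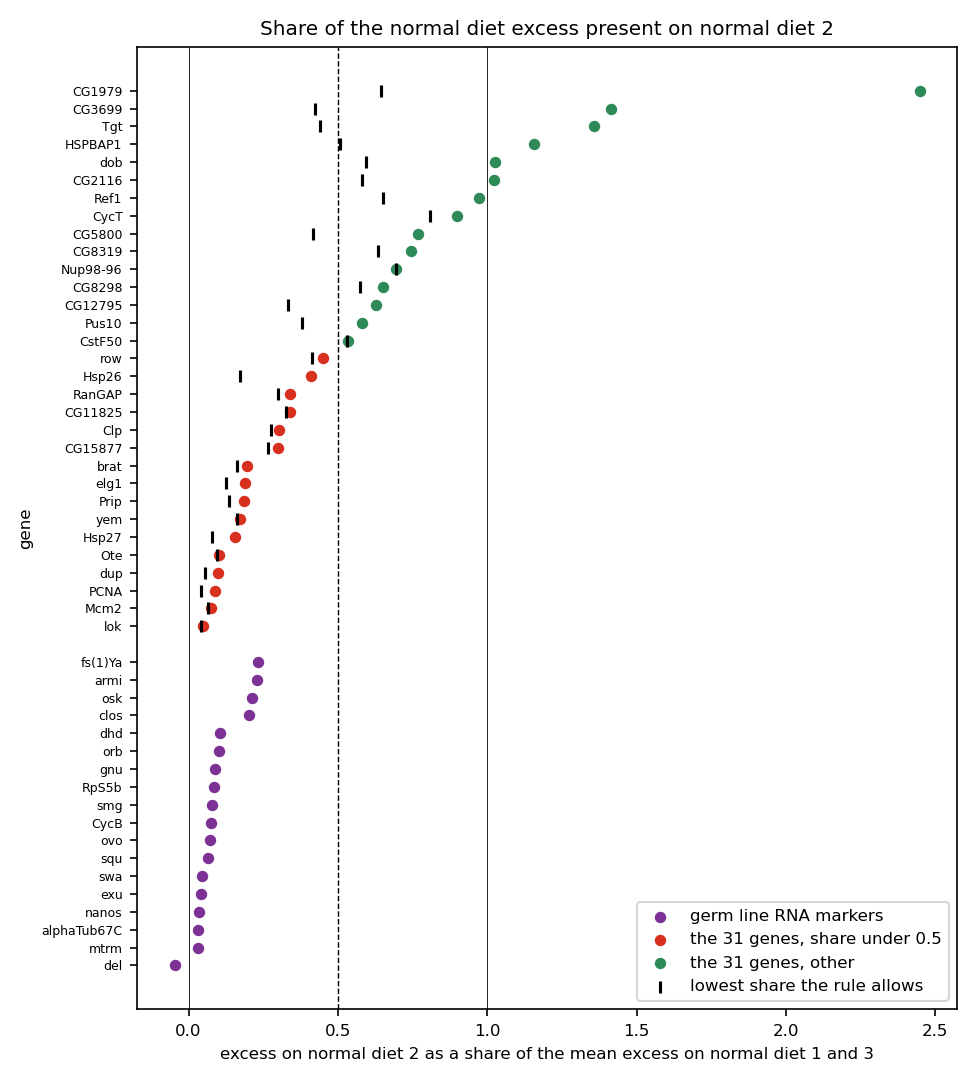
Excess signal on normal diet replicate 2 as a share of the mean excess on replicates 1 and 3 (horizontal axis, no unit) for 18 germ line markers and the 31 genes. Black bars mark the lowest share that the limits leave possible for each gene, and the dashed line is at 0.5. The markers end at 0.231, 10 of the 31 genes lie at or below that value, and CG1979 has the highest share at 2.45.

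The limits themselves bear on this share, because normal diet replicate 2 had to be at least 25% above the largest high fat value. For 10 genes with small differences the lowest share that the limits allow was 0.5 or more, so a share under 0.5 was not open to them. Normal diet replicate 2 was the lowest of its diet in 6 of the 15 genes outside the 16 (40.0%), among them CstF50 and CG8298. The 16 were set apart by having replicate 2 lowest, so what is left cannot be compared with the 38.1% of 7320 well-measured genes in which it was so. Of the 21 genes for which a share under 0.5 was possible, 16 had one and 5 did not. These 5 were CG3699 (1.41), Tgt (1.36), CG5800 (0.768), CG12795 (0.628) and Pus10 (0.582). Among the 10 that could not, CG1979 (2.45), HSPBAP1 (1.16), dob (1.03), CG2116 (1.02) and Ref1 (0.971) had a share close to 1 or above it, while CstF50 (0.535) and the Nup98 and Nup96 gene (0.695) sat at the lowest value allowed. In several of the 16, such as lok at 0.0499 with 0.0428 allowed and yem at 0.172 with 0.163 allowed, replicate 2 also lay just above the limit.

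**Figure D3:**
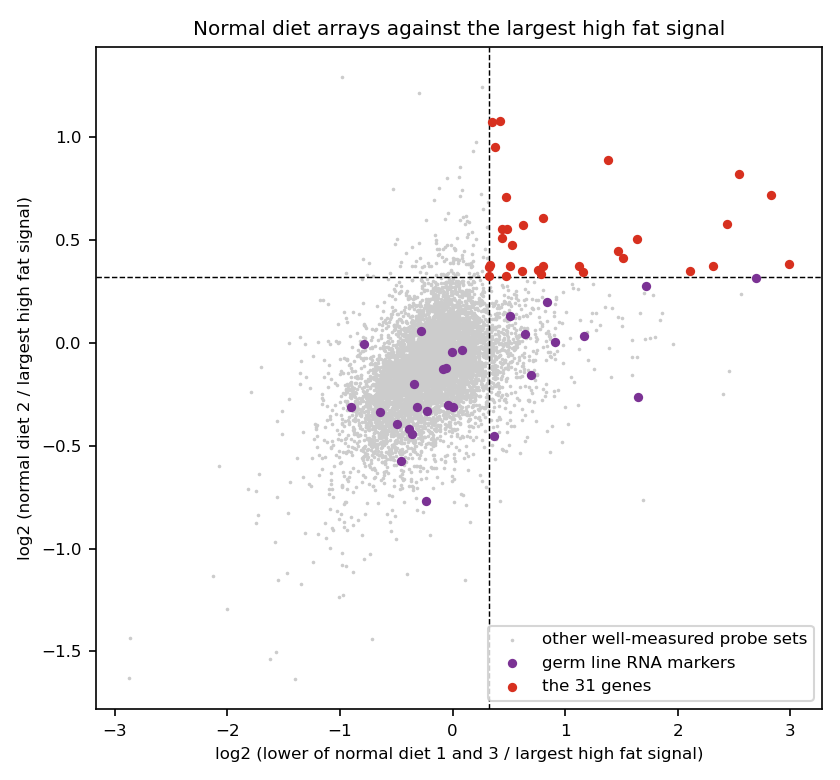
For each well-measured probe set outside the families left out, the lower of normal diet replicates 1 and 3 (horizontal axis) and normal diet replicate 2 (vertical axis), each as log2 of its ratio to the largest high fat signal. Dashed lines mark the smallest gap the limits allow, red points are the 31 genes, purple points are 28 well-measured germ line markers and grey points are other probe sets. Of 550 probe sets to the right of the vertical line, 519 lie below the horizontal line.

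Normal diet replicate 2 set most of the limit on which genes entered the group. With replicates 1 and 3 alone held to the gap, 550 well-measured probe sets met it, and in 519 of them replicate 2 fell short. With replicates 1 and 2 alone the count was 35, and with replicates 2 and 3 alone it was 84. No germ line marker met all the limits. The 28 markers with signal of at least 64 on all 6 arrays, a set that holds genes also used outside the germ line, had a median change of -0.05, with 15 lower. Of the 18 described above, 12 had the gap but a high fat array under 64, and 6 lacked the gap. By the ratio of the smallest normal diet to the largest high fat value, just outside the limit lay ftz-f1, a nuclear receptor (1.246), exu, which moves bcd RNA in the oocyte (1.245), and CG42329 (1.244), and just inside lay the Nup98 and Nup96 gene (1.2505), CstF50 (1.253) and CycT (1.254). At the signal limit, CG6683 (59.2), mtrm (58.7), a regulator of meiosis in the oocyte, and Marf1 (53.2) were just outside, and Ote (65.2), CG15877 (69.9) and Tgt (76.1) just inside. mtrm and exu had shares of 0.0311 and 0.0419.

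Without normal diet replicate 2, limma called 151 probe sets lower, 0.805%, among them 6 of the 31 genes. They were PCNA, lok, dup, Mcm2, Ote and Prip, each of which has a share under 0.2. With variance trend and robust moderation on all arrays it called 8 lower, 0.0426%, and 1 of the 31, CG12795 (adjusted p = 0.0338 by limma), whose share is 0.628. Since the genes were chosen on the same arrays, these calls are no independent support.

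**Figure D4:**
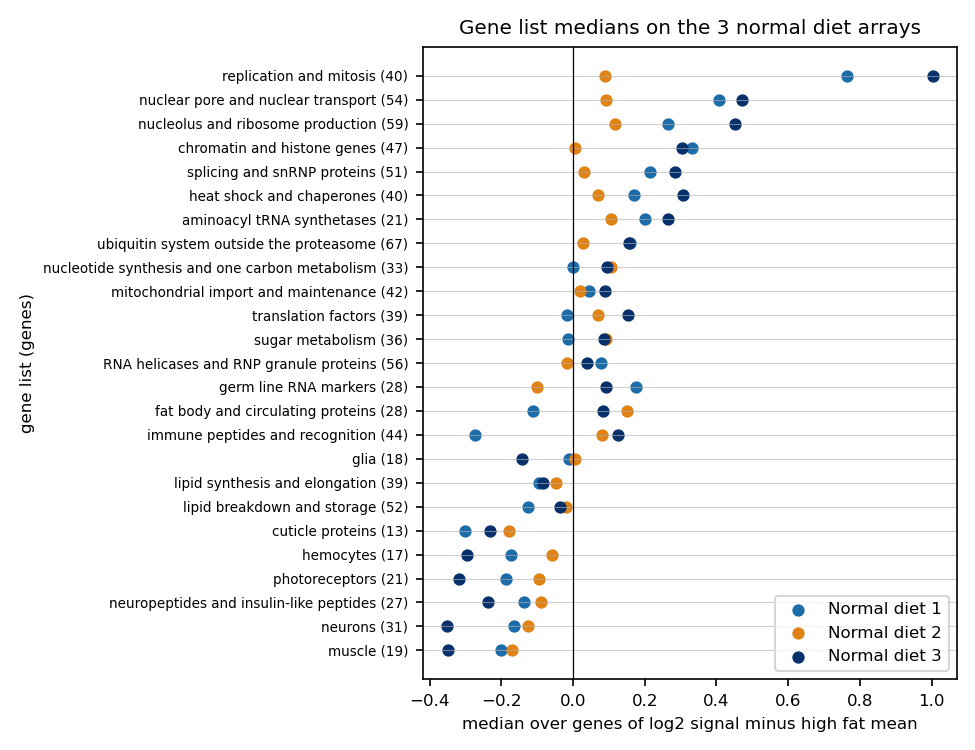
Median over the well-measured genes of each list of log2 signal minus the mean of the 3 high fat arrays (horizontal axis), for each normal diet array, with the number of genes in brackets. Replication and mitosis reach 0.76 and 1.00 on replicates 1 and 3 and 0.09 on replicate 2. Several lists, among them neurons, photoreceptors and muscle, lie below 0 on all 3 arrays.

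The 4 lists that hold members of the group had their lowest median on normal diet replicate 2 and their highest on replicate 3. Set against the high fat mean, splicing and RNA processing was 0.22, 0.03 and 0.29 higher on normal diet replicates 1, 2 and 3 and heat shock and chaperones 0.17, 0.07 and 0.31. Replicate 2 was also the lowest of its diet in some lists without a member. Nucleolus and ribosome production had medians of 0.26, 0.12 and 0.45, and chromatin and histone genes of 0.33, 0.01 and 0.30, with 55 of 59 and 40 of 47 genes lower on the high fat diet. Aminoacyl tRNA synthetases had 21 of 21 genes lower, with a median change of -0.17. Other lists differed, such as translation factors, at -0.02, 0.07 and 0.15, and nucleotide synthesis and one carbon metabolism, at 0.0003, 0.11 and 0.09. The lists of neurons, photoreceptors and muscle went the other way, with medians of -0.17, -0.13 and -0.35 for 31 neuron genes. They were not alone in this. Hemocytes, neuropeptides and insulin-like peptides, cuticle proteins, lipid synthesis and elongation, and lipid breakdown and storage also lay below 0 on all 3 arrays. Glia, at -0.01, 0.0048 and -0.14, and fat body and circulating proteins, at -0.11, 0.15 and 0.08, did not lie below 0 on all 3 arrays. The scaling of each array to 1 mean makes such shifts relative: with the arrays centred on their medians, the median over all probe sets was 0.23 in place of -0.03. All 31 genes stayed lower with coconut oil under that centring and under quantile normalization. The limits were then met by 9 of them and by 13. Those that met them under both were Hsp27, PCNA, dup, Mcm2, Ote, Hsp26, brat, CG12795 and RanGAP.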

How the data were processed

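The authors deposited linear signal intensities of 6 arrays, made with Affymetrix Expression Console per the submitters' processing notes; for its version and summary method the sources used here give nothing. Without the top and bottom 2% of its 18952 probe sets, each array had a mean of 500, the mark of 1 scaling factor per array. No replicates were pooled and no further normalization was applied. Values below 1 (2010 of them) were set to 1 before log2, and 183 control probe sets were left out. Gene names come from the platform annotation, which gave 13647 probe sets 1 symbol; the RefSeq gene table kept the symbols of all 31 genes. limma 3.58.1 in R 4.3.3 fitted 18769 probe sets, high fat minus normal diet, without covariates, with Benjamini-Hochberg adjustment, and was tested on simulated data. For lists, the brightest probe set stood for a gene, and well measured means at least 64 on all 6 arrays. There were 28 lists, 19 of pathways and 9 of cell types. Named are all genes that met the limits, with those nearest to each limit. The members and lists were chosen with earlier results of these data known. Pathway lists of which no value is given above held no member. Alternatives were normalization, the limits, the variance model, a replicate block and leaving out each array. Promoter sequences and motifs were not analysed here. With 3 arrays per diet, precision is set by their number.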

Additional observations from a re-analysis of the deposited data

How the results depend on the processing

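The number of genes meeting the limits, 31, moved with each limit. It was 52 with a signal limit of 32, 16 with that limit raised 2-fold from 64, 236 with a gap of 1.1 times and 4 with 1.5 times. After quantile normalization it was 14 and after centring each array on its median 9. Leaving out 1 array gave 35 to 554 genes, since fewer arrays have to clear the gap: 554 without normal diet replicate 2, 84 without replicate 1, and 68, 54 and 101 without high fat replicates 1, 2 and 3. The median log2 change of the 31 genes stayed within the spread between arrays, from -0.94 to -0.61 over its alternatives. The 16 genes with a low share and normal diet replicate 2 lowest numbered 10 when the share was held to the highest of the germ line markers. They numbered 12 to 20 under the other alternatives. Without normal diet replicate 2 the share cannot be formed. limma's 0 calls became 26 with trend and robust moderation, 7 with dim probe sets removed and 167 when normal diet replicate 2 was left out (range 0 to 167 over arrays left out), and calls among the 31 genes became 1, 0 and 6. Same-numbered arrays of the 2 diets did not deviate together (correlations of -0.0246, 0.0065 and 0.033). What they share beyond a number was not tested. With the replicate block limma called 0 probe sets and 0 of the 31 genes. The causes of these changes, and of the spread from 35 to 554 genes between the arrays left out, were not tested.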

Other observations

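Outside the 31 genes, 4 further probe sets met the same numerical limits. Orc4, a subunit of the complex that marks replication origins, was left out by the start of its symbol; it measured 174, 102 and 223 without coconut oil against 80.6, 79.8 and 70.7 with it (log2 change -1.04, SE 0.31) with a share of 0.202 on normal diet replicate 2. Of the 3 probe sets without a single gene symbol, the one with the largest difference measured 2570.1, 233 and 3549.9 against 86.4, 66.8 and 72.3 (-4.11, SE 1.09), a share of 0.053. Another measured 1542, 468 and 2478 against 217, 239 and 233 (-2.40, SE 0.63), a share of 0.134. The third, which the annotation assigns to both pre-lola-G and lola, measured 148, 101 and 131 against 75.0, 66.2 and 69.6 (-0.84, SE 0.18), a share of 0.45. All 4 had their lowest normal diet value on replicate 2. Orc4 and the first 2 unnamed probe sets had normal diet replicate 3 above replicate 1 and shares under 0.231, the highest of the germ line markers; the part of germ line RNA was not tested.

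A further 34 probe sets with 1 symbol met the gap with at least 64 on all normal diet arrays but fell under 64 on a high fat array.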
